A study of Mus musculus with 3 samples.

Results

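The mitochondrial ribosomal proteins are encoded by nuclear genes, and 78 of these genes were described here in regulatory T cells. They were taken as every gene with a protein-coding transcript whose symbol begins with Mrpl or Mrps followed by a number. The 78 were found among 55536 mouse genes of the deposited gene tables, of which 22028 were protein-coding. By their symbols 49 belong to the large subunit (Mrpl) and 29 to the small subunit (Mrps). The RNA was polyadenylated RNA from primary regulatory T cells of a male adult mouse aged 4 months, of the strain labelled Foxp3CreERT2 x Rosa26YFP, in which the Foxp3 locus carries a tamoxifen-inducible Cre and the Rosa26 locus a yellow fluorescent reporter. The labels give a bone marrow haematopoietic cell as the origin of the cells and no tamoxifen treatment. The 3 libraries, called libraries 1, 2 and 3, are labelled as technical replicates of biological replicate 1. The labels do not say whether they share an RNA preparation, and their red blood cell genes differ widely (values below). They form 1 group, so there is no comparison of conditions. Every spread and p-value below measures only the differences between these libraries, which may include differences between cell preparations.

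Mitochondria keep their own ribosome, which translates the few messenger RNAs of the mitochondrial genome into membrane subunits of the respiratory chain and of ATP synthase. Its RNAs are made inside the organelle, while all of its proteins are made in the cytosol and imported. Some of the proteins have counterparts in the bacterial ribosome, and others were gained during the evolution of mitochondria. In T cells, mitochondrial translation is known for its part in respiration and in effector function.

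The gene tables hold totals of 9299054, 9188612 and 8284381 expected counts in libraries 1, 2 and 3. Levels are given in TPM, a share of all transcripts that is corrected for gene length. The label of the cells was checked against marker genes. The 5 regulatory T cell markers (Foxp3, Il2ra, Ctla4, Ikzf2 and Tnfrsf18) were all at 1 TPM or more in every library and summed to 1605, 1722 and 1693 TPM. Single markers were less even than this sum. Foxp3 had 27.56, 43.66 and 47.12 TPM in libraries 1, 2 and 3, and Il2ra 210.57, 331.88 and 369.42 TPM. Ctla4 and Ikzf2 were also lowest in library 1 in TPM, by less. Tnfrsf18 went the other way, with 760.9, 649.55 and 655.1 TPM. The 2 CD8 T cell markers summed to 16.0 to 21.4 TPM and the 5 B cell markers to 116 to 192 TPM. Markers of red blood cells and plasma cells differed between libraries. The 5 erythroid genes summed to 1681, 9.02 and 1495 TPM and the 4 plasma cell genes to 1977, 207 and 1382 TPM. Most of the plasma cell sum was Igkc, with 1841.75, 200.6 and 1203.18 TPM in libraries 1, 2 and 3. Jchain was also highest in library 1 and lowest in library 2. Igha was highest in library 3, with 36.42, 1.35 and 98.5 TPM, and Sdc1 stayed under 1 TPM in every library. The 5 myeloid genes summed to 52.4, 10.7 and 30.9 TPM, with 3 of them at 0 in a library. The part of these cell types in the levels below was not tested.

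Nearly the whole family was expressed, at levels well above the typical expressed gene. The threshold of detection was set at 1 TPM, to be reached in each of the 3 libraries. It was met by 77 of the 78 genes, against 45.9% of all protein-coding genes. At least 10 TPM in every library was reached by 74. The median of the mean levels was 55.5 TPM, with an interquartile range of 35.1 to 95.8 TPM, against 20.1 TPM (7.39 to 54.1) over the 10120 detected protein-coding genes. Above that background median lay 68 members, and 41 lay above its upper quartile. Together the members summed to 5917, 5272 and 5109 TPM in libraries 1, 2 and 3, and took 0.373%, 0.301% and 0.296% of the expected counts.

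The 2 subunits stood at similar levels. The median of the large subunit genes was 58.8 TPM and that of the small subunit genes 54.5 TPM. On the log2(TPM + 1) scale the medians differed by 0.11, and by 0.35, 0.11 and 0.02 when taken in libraries 1, 2 and 3 alone, so the difference was smaller than its SD of 0.17 between libraries. The second transcript tables gave a difference of 0.30. The 44 members listed with a bacterial counterpart had a median of 62.8 TPM, and the 34 others 53.6 TPM. Of the paralogs related to bacterial S18, only Mrps18c was listed with a counterpart, and Mrps18a and Mrps18b were counted among the others.

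**Figure D1:**
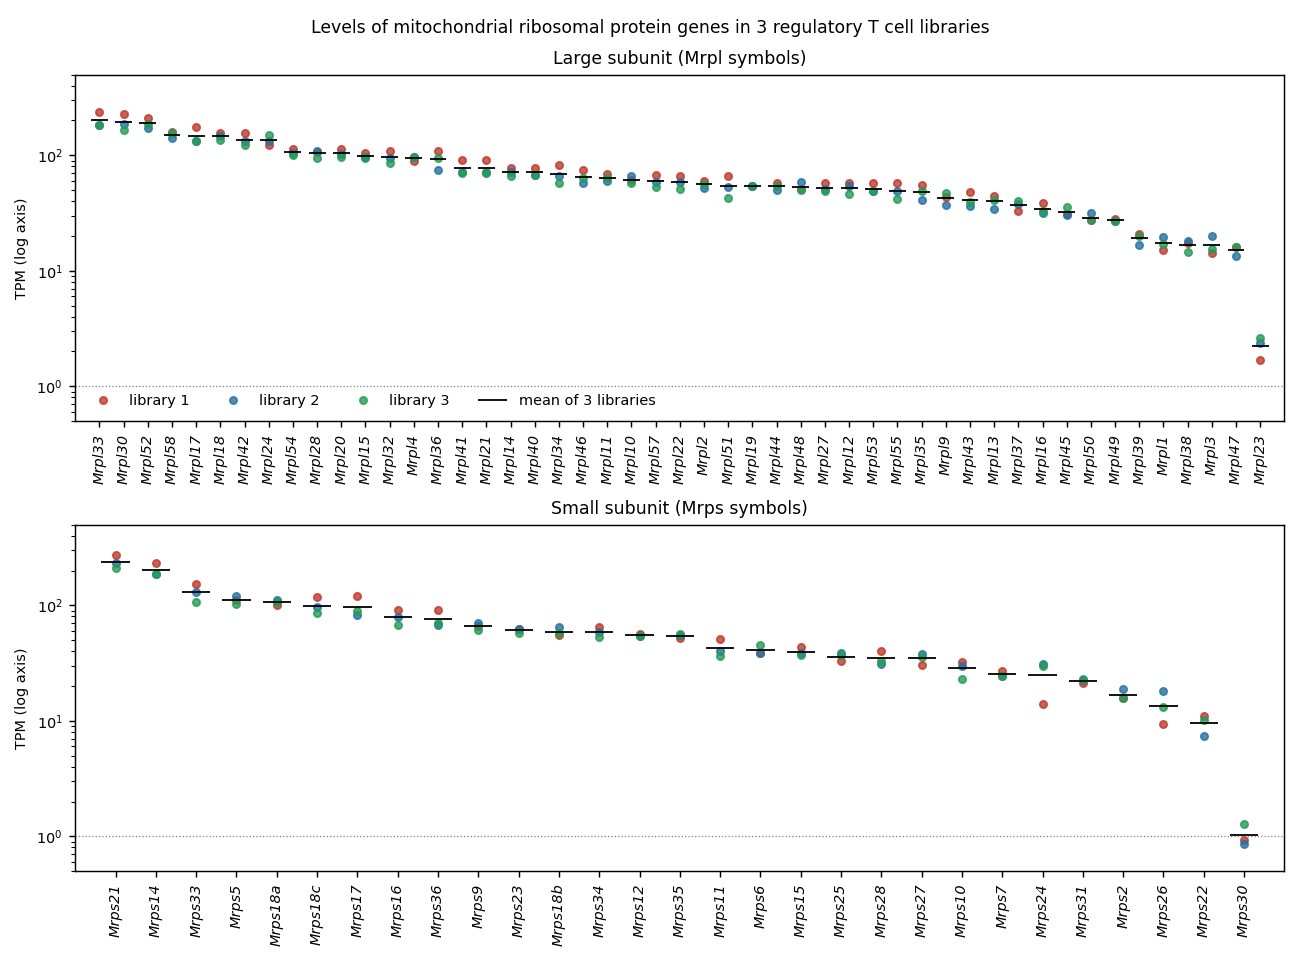
Level of each mitochondrial ribosomal protein gene in TPM on a log axis, large subunit above and small subunit below, ordered by mean; points are the 3 libraries, black lines their means and the dotted line the detection threshold of 1 TPM. Most genes lie between 10 and 200 TPM, and Mrpl23 and Mrps30 stand far below the rest of their subunits.

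Among the large subunit genes the highest was Mrpl33, whose protein is the counterpart of bacterial L33. It had 237.18, 182.28 and 182.26 TPM in libraries 1, 2 and 3. Mrpl30, the counterpart of L30, had 229.05, 188.17 and 165.91 TPM. Mrpl52, a protein with no bacterial counterpart, had 212.25, 170.80 and 185.45 TPM. The ranges of these 3 genes over the libraries overlapped, so their order is not resolved. The next genes were Mrpl58 at 151 ± 9.67 TPM and Mrpl17 at 147 ± 24.6 TPM (SD, n = 3 each), which overlapped too. Mrpl58 encodes a peptidyl-tRNA hydrolase that frees stalled mitochondrial ribosomes, and Mrpl17 the counterpart of L17.

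The lowest large subunit gene in the gene tables was Mrpl23, described further on with its pseudogene. Above it came Mrpl47 at 15.2 ± 1.55 TPM, Mrpl3 at 16.6 ± 3.13, Mrpl38 at 16.6 ± 1.80 and Mrpl1 at 17.2 ± 2.16 TPM (SD, n = 3 each). Mrpl3 is the counterpart of L3, which lies close to the peptidyl transferase centre, and Mrpl1 that of L1, which forms the stalk where the spent tRNA leaves. The ranges of these 4 genes overlapped one another. The other 39 large subunit genes lay between Mrpl39 at 19.3 TPM and Mrpl18 at 147 TPM.

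Among the small subunit genes Mrps21 was the highest, and the highest of all members. It had 274.34, 233.96 and 208.40 TPM in libraries 1, 2 and 3, and its protein is the counterpart of bacterial S21. Mrps14, the counterpart of S14, had 232.31, 186.91 and 186.13 TPM. Mrps33, which has no bacterial counterpart, had 152.58, 129.07 and 107.51 TPM, below Mrps14 in every library and without overlap of their ranges. Mrps5, the counterpart of S5, followed at 111 ± 9.11 TPM and Mrps18a at 106 ± 4.49 TPM (SD, n = 3 each).

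Mrps30 was the lowest member and the only one under the detection threshold, with 0.93, 0.86 and 1.28 TPM from 69 counts over the 3 libraries. Its gene (ENSMUSG00000021731.10) lies on the minus strand of mm10 chromosome 13 from 118378381 to 118387252, and structures of the mammalian ribosome place its protein in the large subunit in spite of its symbol. Mrps22, which has no bacterial counterpart and is mutated in human mitochondrial disease, had 11.03, 7.45 and 10.14 TPM. Mrps26 had 9.31, 18.09 and 13.17 TPM, and Mrps2, the counterpart of S2, had 15.71, 18.91 and 15.90 TPM. Mrps30 was below each of them in every library, while the ranges of Mrps22, Mrps26 and Mrps2 overlapped in part. Mrps31 followed at 22.2 ± 1.06 TPM (SD, n = 3).

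Mrps18a, Mrps18b and Mrps18c are paralogs related to bacterial S18, and structures place the product of Mrps18a in the large subunit. Mrps18a had 101.18, 110.14 and 106.23 TPM in libraries 1, 2 and 3. Mrps18b had 55.14, 65.39 and 57.03 TPM, and Mrps18c had 116.98, 96.28 and 84.93 TPM. Mrps18b was below both others in every library, while Mrps18a and Mrps18c exchanged their order between libraries.

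The level of Mrpl23 differed widely between the kinds of table, and the gene has a near-complete copy elsewhere in the genome. Mrpl23, the counterpart of bacterial L23 at the exit of the peptide tunnel, lies on mm10 chromosome 7 (ENSMUSG00000037772.13, plus strand). Its processed pseudogene Mrpl23-ps1 lies on chromosome 2 (minus strand). A processed pseudogene is a copy of a spliced messenger RNA that was inserted back into the genome. The 438 bases of the coding sequence of transcript Mrpl23-201 match bases 18 to 455 of the pseudogene with 100% identity and 0 mismatches, read from the GENCODE M21 transcripts. The opening 120 bases of both are shown because the pair is listed so differently: no base in them tells the loci apart. Capitals mark the start codon, and each sequence is given 5′ to 3′ on the strand of its own gene.
Mrpl23 (gene at chr7:142532686-142540747, plus strand, bases 1 to 120 of the coding sequence): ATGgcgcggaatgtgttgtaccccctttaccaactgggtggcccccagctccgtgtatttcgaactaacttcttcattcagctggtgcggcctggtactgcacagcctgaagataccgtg
Mrpl23-ps1 (chr2:74591330-74591909, minus strand, bases 18 to 137): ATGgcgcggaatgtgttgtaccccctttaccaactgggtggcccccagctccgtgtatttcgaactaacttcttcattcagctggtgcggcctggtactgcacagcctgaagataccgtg

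The gene tables listed nearly all of the summed level of the pair under the pseudogene. Mrpl23 had 1.70, 2.37 and 2.63 TPM in libraries 1, 2 and 3, and Mrpl23-ps1 had 170.3, 157.32 and 139.4 TPM. Mrpl23 thus held 1.41% of the summed level of 158 ± 15.1 TPM (SD, n = 3). The 3 protein-coding transcripts of Mrpl23 that the first transcript tables list were all at 0, and its small level lay on retained-intron transcripts.

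The second transcript tables, made from the reads of the same libraries and a transcript index, gave another division between the pair. There Mrpl23 had 34.9, 32.6 and 29.5 TPM, almost all of it on the protein-coding transcript Mrpl23-207 at 32.7, 30.1 and 27.9 TPM. Mrpl23-ps1 had 69.2 ± 2.35 TPM (SD, n = 3). Mrpl23 held 31.8% of the sum of both, which was 102 ± 4.85 TPM. Over detected genes, TPM of the second transcript tables differed from those of the gene tables by a median of -0.83 on the log2 scale. TPM are therefore not directly comparable between the kinds of table, and the division is read from the share. The whole-number counts for the older GENCODE M4 annotation were 235, 223 and 161 for Mrpl23, against 31, 40 and 35 rounded expected counts in the gene tables. The M4 counts hold no value for Mrpl23-ps1, so they give no division between the pair. The summed level of the pair lay within the range of the other members in both kinds of table, and the level of Mrpl23 alone is therefore uncertain. Of all runs of 31 bases in the pseudogene, 94.6% also occur in Mrpl23-201, and the 124 to 540 aligned bases of the 7 transcripts of Mrpl23 held no mismatch to it. In the other direction 53.0% of the runs of the protein-coding transcripts of Mrpl23 occur in the pseudogene, and the others do not. How reads were assigned to the pair was not tested.

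**Figure D2:**
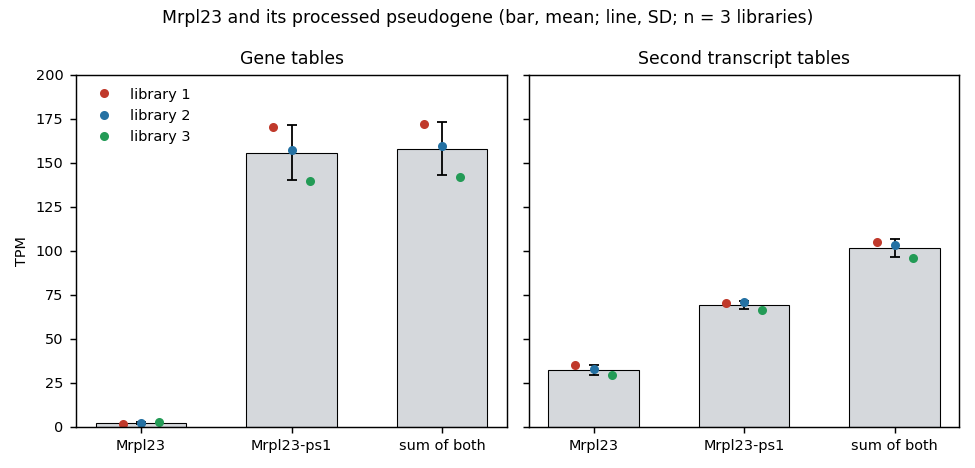
Level of Mrpl23, of its processed pseudogene Mrpl23-ps1 and of their sum in the gene tables (left) and in the second transcript tables (right), in TPM; bars are means, lines the SD and points the 3 libraries. The pseudogene takes nearly all of the sum in the gene tables, and Mrpl23 takes 31.8% of it in the second transcript tables. Over detected genes, the second transcript tables differed from the gene tables by a median of -0.83 on the log2 scale.

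Most other members share little sequence with another gene. Runs of 31 bases in the protein-coding transcripts were searched in all other genes of the annotation. The median share of such runs found elsewhere was 1.52%, 31 members had none, and 12 had 20% or more. All of the runs of Mrpl53 lie in Gm42688, an overlapping gene model at 0.667 TPM. Mrpl27 shared 49.2% and Mrpl22 43.2% of their runs with other genes, led for Mrpl22 by the pseudogene Gm6997 at 1.06 TPM. Mrps36 shared 39.9%, and its named pseudogenes Mrps36-ps1, Mrps36-ps2 and Mrps36-ps3 held at most 2 counts in a library. Mrps33 shared 16.9%, mainly with the pseudogene Gm5776, which stood at 26.7 TPM. Exons of 33 members overlap exons of another gene, 8 of them on the same strand and 28 on the opposite strand. The strand setting of the counting is not known, so reads of such pairs cannot be told apart.

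Some of the genes were read mostly as transcripts that the annotation does not class as coding. For each gene, the leading transcript is the one with the largest mean share of its TPM. It took 50% or more in 69 members, against 72.8% of detected protein-coding genes. It was not protein-coding in 19 members (24.4%), against 13.5% of detected protein-coding genes. Of the 19 leading transcripts, 7 were classed as processed transcripts, 6 as targets of nonsense-mediated decay and 6 as transcripts with a retained intron. The second transcript tables gave the same leading transcript in 70 members, and 16 of the 19 were led by a transcript that is not protein-coding in both.

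The processed transcripts led in Mrps16, Mrpl47, Mrpl19, Mrpl20, Mrpl15, Mrpl51 and Mrps35. Mrps16, the counterpart of S16, was the clearest: Mrps16-202 took 97.05%, 96.42% and 96.01% of its TPM in libraries 1, 2 and 3. In the second transcript tables the same transcript took 95.8% ± 0.529 (SD, n = 3). The 3 values lay within about 1 percentage point, so Mrps16 had 79.2 TPM as a gene and only 3.51% of that on protein-coding transcripts. Mrpl20 was less settled, with 57.5% ± 8.72 (SD, n = 3) on its leading processed transcript in the first tables and protein-coding transcripts at 61.5% in the second.

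Decay targets led in Mrps14, Mrpl32, Mrpl35, Mrps11, Mrpl3 and Mrpl48. Mrps14-201 took 93.10%, 92.63% and 91.40% of the TPM of Mrps14 in libraries 1, 2 and 3, so one of the highest members was read almost wholly as such a transcript. Mrpl32, the counterpart of L32, whose maturation by a mitochondrial protease is known to gate ribosome assembly, had 81.6% ± 1.16 (SD, n = 3) on Mrpl32-201. Mrpl48 had 48.92%, 43.38% and 57.82% on Mrpl48-202 in libraries 1, 2 and 3, at the border of the count above.

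Retained-intron transcripts led in Mrps26, Mrpl57, Mrps24, Mrps25, Mrpl23 and Mrps5. Mrps26-201 took 93.4% ± 2.86 of the TPM of Mrps26, Mrpl57-202 91.7% ± 1.63 of that of Mrpl57 and Mrps24-201 89.5% ± 9.68 of that of Mrps24 (SD, n = 3 each). Mrps24 varied most, with 87.71%, 100% and 80.90% in libraries 1, 2 and 3. These shares describe how the tables divided reads among annotated transcripts, many of which differ in short stretches only.

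No transcript reached 50% in 9 members, among them Mrps5, Mrps35 and Mrpl51, which were named above. The lowest leading shares were those of Mrpl24 at 28.0% and Mrps5 at 31.3%. Mrps10, Mrpl38, Mrpl55, Mrps35, Mrps17, Mrpl13 and Mrpl51 had leading shares of 41.6% to 48.2%. Over all members the median share of protein-coding transcripts was 89.3% in the first tables and 82.1% in the second. It was under 50% in 20 members in the first tables and in 19 in the second.

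**Figure D3:**
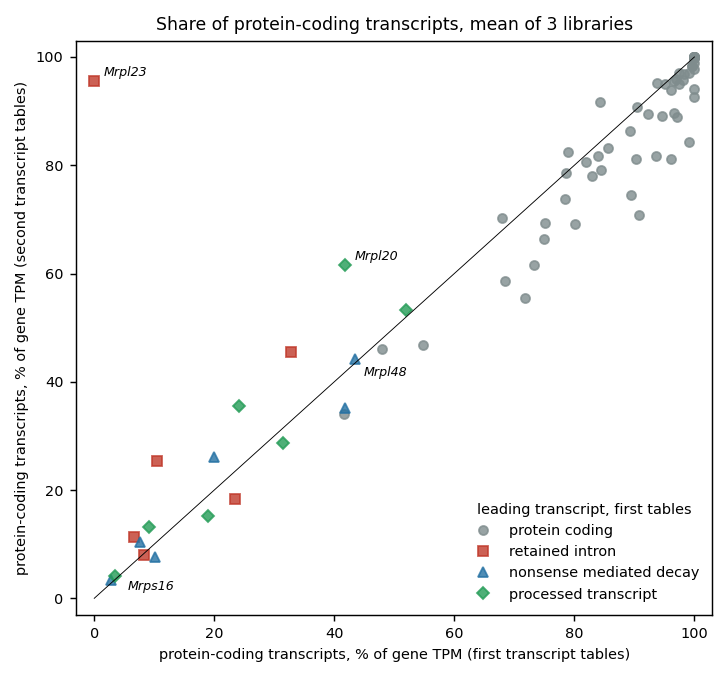
Percent of each member's TPM on protein-coding transcripts, mean of 3 libraries, in the first transcript tables (horizontal) and in the second (vertical); colour and shape give the class of the leading transcript and the line marks equal values. Most members lie near the line, Mrps16 at 3.51% and 4.17%, and Mrpl23 leaves it with 0% and 95.5%.

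With 1 scaling per library most of the members differed between the libraries, and nearly all of these were highest in library 1. Once gene length was taken into the scaling, most members no longer differed. Library 1 was still the highest in 16 of the 22 that did. A chi-square test compared the expected counts of each gene with the scaled totals of the 3 libraries, over 13071 genes with 30 or more counts. At an adjusted p under 0.05, 66 of the 78 members differed (84.6%), against 54.5% of all genes tested and 57.6% of the protein-coding ones. Members that differed and were highest in library 1 numbered 63, which is 80.8% of the members, against a background of 24.2% of all genes tested, or 25.8% of the protein-coding ones. Among the genes that differed, library 1 was the highest in 95.5% of members and in 44.5% of all genes. Only Mrps26 was highest in library 2 and only Mrps24 and Mrps25 in library 3, with backgrounds of 13.6% and 16.7% of all genes tested. All 43 large subunit genes that differed were highest in library 1, as were 20 of 23 small subunit genes. The median ratio of the highest to the lowest scaled count was 1.48 over members (1.08 to 2.01) and 1.37 over all genes tested. Within bins of gene length, described next, it was 1.16 over members and 1.29 over all genes, so the order of the medians turned round. In TPM 51 members (65.4%) were highest in library 1, against 17.4% of detected protein-coding genes.

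Transcript length moved with this difference. The median gene length was 1010 bases in the members and 2350 in the protein-coding genes tested, and 74 members were shorter than that median. Scaled counts of library 1 exceeded the mean of libraries 2 and 3 by a median of 0.48 on the log2 scale in members, against 0.01 in protein-coding genes tested. When the libraries were scaled within 20 bins of gene length, the median excess of the members became 0.12, and 22 members differed (28.2%), against 44.6% of all genes. Under this scaling the members thus differed less often than genes at large, the opposite of the result with 1 scaling per library. Those that differed and were highest in library 1 numbered 16, which is 20.5% of the members, against 18.8% of all genes tested. Of the genes that differed under this scaling, library 1 was the highest in 72.7% of members and in 42.2% of all genes. Between libraries 2 and 3 alone 6 members differed, namely Mrps26, Mrpl24, Mrpl9, Mrps18c, Mrps25 and Mrpl36, which is 7.69% of the members, against 17.2% of genes. Without library 1 the share of members that differ was thus below the background as well.

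**Figure D4:**
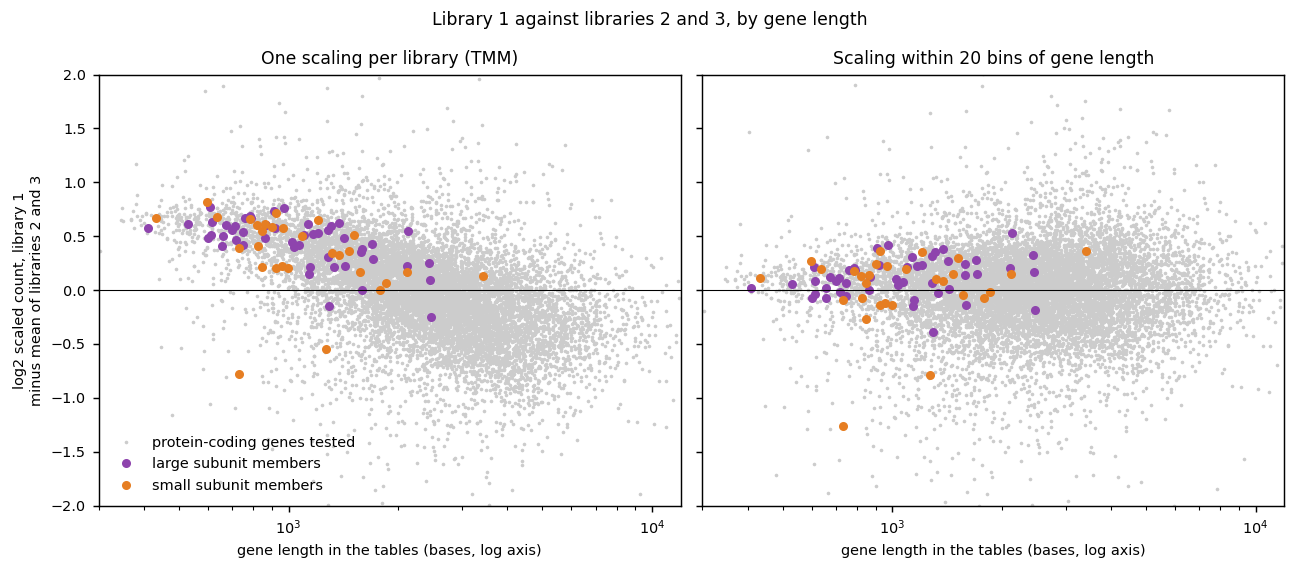
Log2 scaled count in library 1 minus the mean of libraries 2 and 3 for each protein-coding gene tested (grey), large subunit genes (purple) and small subunit genes (orange), against gene length in bases on a log axis, with 1 scaling per library (left) and with scaling within 20 bins of length (right). Short genes are raised on the left, and the median of the members is 0.48 on the left and 0.12 on the right; 67 and 64 of 10897 grey genes lie outside the axes.

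The largest ratio belonged to Mrps18c. Its scaled counts were 423, 272 and 211 in libraries 1, 2 and 3, a ratio of 2.01 (adjusted p = 1.75e-16 in the chi-square test, 0.00226 within length bins). Mrpl36, the counterpart of bacterial L36, had 659, 343 and 459 scaled counts, a ratio of 1.92 (adjusted p = 5.65e-23, 2.82e-09 within length bins). Mrpl51 had 424, 280 and 222 scaled counts, a ratio of 1.91 (adjusted p = 1.47e-14, 7.99e-05 within length bins). In these 3 genes library 1 was the highest and the difference passed the threshold under both scalings.

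The other 7 of the 10 largest ratios among members with 300 or more counts were those of Mrpl34, Mrps26, Mrps11, Mrpl55, Mrps21, Mrps36 and Mrps28, from 1.81 down to 1.65. Mrpl34, the counterpart of L34, Mrpl55, Mrps21, Mrps36 and Mrps28 did not pass the threshold within length bins, where their adjusted p-values were 0.154, 0.219, 0.193, 0.186 and 0.387. Mrps11, the counterpart of S11, kept an adjusted p of 0.0119. Mrps36 has more lately been placed in the 2-oxoglutarate dehydrogenase complex rather than in the ribosome.

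Mrps26 and Mrps24 ran the other way. Mrps26 had 77.7, 140 and 91.7 scaled counts in libraries 1, 2 and 3 (adjusted p = 9.02e-05). Mrps24, the counterpart of bacterial S3, had 63.6, 104 and 114 scaled counts (adjusted p = 0.0016). Both were lowest in library 1, and both are led by a retained-intron transcript. Within length bins their ratios were 2.09 and 2.53. Exons of Mrps24 overlap those of Urgcp on the same strand.

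The 12 members that did not pass the test were Mrpl37, Mrpl1, Mrpl38, Mrpl3, Mrpl47, Mrpl23, Mrps18b, Mrps6, Mrps27, Mrps31, Mrps2 and Mrps30. They include each of the 5 lowest large subunit genes. Of the 12, 10 had 300 or more counts, and the 2 others were Mrpl23 and Mrps30. In TPM the median coefficient of variation between libraries was 10.8% in members, against 17.5% over detected protein-coding genes. The 2 sets were not matched for level, with medians of 55.5 and 20.1 TPM.

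The whole-number counts for the M4 annotation were set against the expected counts for M21 in 77 members. Both were brought to the same total over the genes they have in common, and their ratios were centred on the median. More than 2-fold apart in the same direction in every library were 4 members, against 13.8% of 10093 genes compared. Mrpl23 was higher in the M4 counts by 2.65, 2.22 and 1.91 on the log2 scale in libraries 1, 2 and 3, and Mrpl52 by 1.17, 1.29 and 1.28, against a background of 1.18% for this direction. Mrps33, at -1.62, -1.58 and -1.31, and Mrps36, at -1.17, -1.13 and -1.26, were lower in the M4 counts, against a background of 12.6%. Mrpl23, Mrps33 and Mrps36 share runs of bases with pseudogenes, and Mrpl52 shares none with another gene. Such sharing is common in the family, where 31 of the 78 members had no shared run. Mrpl22 shared 43.2% of its runs and was not over 2-fold apart. The M4 counts hold no value for Mrpl23-ps1. The part of shared sequence in these ratios was not tested.

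Level and length moved together within the family. Spearman's rho between mean TPM and gene length was -0.66 over the 78 genes, and -0.70 with the second transcript tables. The genes share their libraries, and length enters the TPM itself, so this is a description.

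The rest of the mitochondrial translation apparatus was expressed as well, the translation and assembly factors at lower medians than the members. The 5 ribosomal subunits that carry other symbols were all detected at a median of 107 TPM, namely Aurkaip1, Dap3, Chchd1, Ptcd3 and Gadd45gip1. Aurkaip1 had 179.09, 171.71 and 158.38 TPM in libraries 1, 2 and 3 and Gadd45gip1 10.83, 11.33 and 9.35 TPM. All 5 differed between libraries with 1 scaling per library and 3 within length bins. The 11 translation factors were all detected at a median of 25.4 TPM, from 4.06 TPM to 71.8 TPM for Tufm, the elongation factor that brings aminoacyl-tRNA to the ribosome. Of these, 7 (63.6%) differed with 1 scaling per library and 4 (36.4%) within length bins. The 24 assembly factors were all detected at a median of 23.1 TPM, from Noa1, a GTPase, at 1.77 TPM to the helicase Dhx30 at 113 TPM. Both ends of this range depended on the table. In the second transcript tables Noa1 had 12.5 TPM, above Ybey at 2.34 TPM. Dhx30 had 71, 83 and 67 M4 counts in libraries 1, 2 and 3, against 1269, 1867 and 1642 expected counts. Of the 24 assembly factors, 8 (33.3%) differed with 1 scaling per library and 7 (29.2%) within length bins. The share over all genes tested was 54.5% with 1 scaling per library and 44.6% within length bins. The ribosomal RNAs mt-Rnr1 and mt-Rnr2 had 1257 and 6272 TPM on average, in a protocol that selects for polyadenylated RNA.

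The 78 genes are spread over 17 chromosomes, with at most 11 on 1 of them (chromosome 11). Many of them start beside another gene that runs the opposite way. A divergent partner that is protein-coding, with its start within 500 bases or overlapping, was found for 25 members (32.1%), against 15.6% of detected protein-coding genes and 8.88% of all protein-coding genes. In 1 case both partners are members: Mrpl46 at 65.3 TPM and Mrps11 at 42.5 TPM overlap by 412 bases on chromosome 7. Mrpl49 at 27.4 TPM lies 59 bases from Fau, which encodes a cytosolic ribosomal protein and had 2751 TPM. Mrpl10 at 61.4 TPM lies 153 bases from Lrrc46, which was at 0 TPM. Mrpl32 at 96.4 TPM lies 75 bases from the proteasome gene Psma2 at 127 TPM, and Mrpl36 at 92.5 TPM overlaps by 29 bases the complex I gene Ndufs6 at 113 TPM. The levels of divergent partners thus ranged from 0 TPM to far above the member.

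Promoters were read from RefSeq (GRCm38.p6), which held 75 starts for 69 of the 78 members. Motifs were searched on both strands in the 250 bases before the start. CCGGAAG, a motif of ETS factors, lay in 18 member promoters (24.0%), against 15.2% of promoters of detected protein-coding genes and 6.91% of all promoters. The motif of NRF1, a regulator of nuclear genes for mitochondrial proteins, lay in 10 (13.3%), against 8.96% and 3.74%. AAGATGGCG, a YY1 motif, lay in 2 (2.67%), against 1.31% and 0.606%. CCAAT lay in 28 (37.3%), against 36.0% and 33.8%, and TATAAA in 5 (6.67%), against 6.06% and 12.4%. The 28 promoters with CCAAT belong to 25 genes, because overlapping windows of Mrpl2 and of Mrps16 were counted separately. Each motif was counted on its own, whether or not it overlapped another. The median GC content was 58.4% in members, 59.6% in promoters of detected protein-coding genes and 52.4% in all promoters.

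The 120 bases before the start are shown for 3 large subunit genes with a match and with no annotated exon in the window. Capitals mark the matches, which are NRF1 motifs in Mrpl45, a gene at 32.4 TPM, and ETS motifs in Mrpl52 and Mrpl58, at 190 and 151 TPM. In Mrpl52 the match is on the opposite strand.
Mrpl45 (chr11:97315596-97315715, plus strand): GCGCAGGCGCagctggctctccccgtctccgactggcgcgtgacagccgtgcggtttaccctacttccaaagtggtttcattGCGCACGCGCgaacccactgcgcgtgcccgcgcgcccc
Mrpl52 (chr14:54426789-54426908, plus strand): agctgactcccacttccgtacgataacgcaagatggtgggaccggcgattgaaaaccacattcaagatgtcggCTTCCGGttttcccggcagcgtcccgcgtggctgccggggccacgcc
Mrpl58 (chr11:115403632-115403751, plus strand): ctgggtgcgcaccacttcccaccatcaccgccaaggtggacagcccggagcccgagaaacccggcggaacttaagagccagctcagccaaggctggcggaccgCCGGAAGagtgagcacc
All 3 promoters hold neither CCAAT nor TATAAA in the 250 bases. A match of letters is a description of the sequence and not a bound site.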

How the data were processed

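Polyadenylated RNA of regulatory T cells was sequenced in 3 libraries, grouped by the labels as technical replicates of 1 biological replicate. The authors deposited a gene table with expected counts and TPM and a transcript table with expected counts, TPM and the percent of each gene's TPM, made from an alignment to mm10 with GENCODE M21, per the deposited readme and the file headers. The second transcript tables hold estimated counts and TPM made from reads and a transcript index of M21, per the deposited readme. Whole-number counts per gene for GENCODE M4 were deposited without a header. The sources used here do not name the aligner, the quantifiers or the strand setting. Entries that are not mouse genes, 0.117% to 0.135% of the counts, were left out.

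Expected counts were rounded. Each gene with 30 or more counts was tested for homogeneity by chi-square against TMM-scaled totals (edgeR 4.0.16, R 4.3.3; the alternative used DESeq2 1.42.0), with Benjamini-Hochberg adjustment over all genes and a threshold of 0.05. The test assumes counting noise only, and PCR copies were not told apart by molecular identifiers, so its p-values cover counting error. It was run on simulated counts drawn with the same counting noise and totals that it assumes. That run cannot show how the test behaves under other noise. Other calculations used Python 3.11.15, numpy 2.4.6, pandas 2.3.3 and scipy 1.17.1. Positions and transcripts are from GENCODE M21, promoters from RefSeq.

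The members and the lists were chosen with earlier results of these data known. Named are the 5 highest and 5 lowest members of each subunit, members under 1 TPM, the 10 largest ratios between libraries with 300 or more counts, members led by a transcript under 50% or not protein-coding, members over 2-fold apart between count tables, and the Mrps18 paralogs. Genes named outside this rule (Mrps25, Mrpl9, Mrpl27, Mrpl22, Mrpl53, Mrpl45, Mrpl18, Mrpl39, the members that did not pass the test and those with divergent partners) were chosen after their values were seen. Alternatives covered scaling, filters, length bins, tables, pseudocount and leaving out each library.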

Additional observations from a re-analysis of the deposited data

How the results depend on the processing

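Scaling within bins of gene length lowered the members that differ between libraries to 22 and those highest in library 1 to 16. The comparison with all genes turned round: 28.2% of members against 44.6% within length bins, and 7.69% against 17.2% without library 1, in place of 84.6% against 54.5%. Leaving out each library in turn gave 6 to 65 members that differ, the 6 without library 1. Over all genes tested 17.2% differed without library 1, 49.3% without library 2 and 46.5% without library 3. Without library 2 or 3, an alternative chosen after seeing the data, 60 to 63 members differed and were highest in library 1. The share over all genes was 25% without library 2 and 25.1% without library 3. The large minus small subunit difference was 0.30 with TPM of the second transcript tables, beyond the spread between libraries; the cause was not tested. It was 0.02 to 0.22 with a library left out. DESeq2 size factors, unscaled totals, all genes with any count, M4 counts and second transcript table counts gave 61 to 72 members that differ. Under these settings 56 to 69 members differed and were highest in library 1. Over all genes tested, 54.4% differed with DESeq2 size factors, 56.2% with unscaled totals, 63.7% with M4 counts and 47.8% with the second transcript tables. Those that differed and were highest in library 1 were 24.3%, 17.6%, 27.8% and 23.6% in the same order. No such share was computed for all genes with any count. Detected members numbered 76 to 77 and members with a leading transcript of 50% or more 66 to 70 under the alternatives. Members over 2-fold apart between count tables numbered 3 with a minimum of 5 CPM. The mean TPM moved by more than 1 SD in 74 members with the second transcript tables and in 66 with posterior mean TPM. Over detected genes, the second transcript tables differed from the gene tables by a median of -0.83 on the log2 scale. Centred on that median, the members other than Mrpl23 lay from -0.43 to 0.78. At 69 counts, depth limits what can be seen in Mrps30. Mrpl23 had 106 counts, while it and its pseudogene together had 588, 477 and 384 expected counts in libraries 1, 2 and 3. The count of Mrpl23 thus also rests on how reads were divided between the pair, which was not tested. No paired analysis was possible because the libraries form 1 group.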
